A study of Mus musculus with 6 samples.

Results

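The transcripts described here are the ATF4 and amino acid response genes, a list of 38 genes taken by gene symbol from the 23420 rows of the count table. They are the transcription factor ATF4 with its partner factors, the stress genes ATF4 is known to drive, amino acid transporters, and the enzymes that make asparagine, serine, glycine, proline, cysteine and folate-bound one-carbon units. Aminoacyl-tRNA synthetases were left off the list. All 38 symbols were found, and 34 of them passed the filter on low counts, which asked for more than 1 CPM (the count scaled to the library total) in 3 libraries or more and which 13168 genes met in all. For the CPM levels printed below, the total over these 13168 genes was multiplied by a TMM factor for each library, from 0.927 to 1.06. The list was chosen by pathway membership with the fold changes and p-values of ob/ob against wild type in these same libraries in view. Fold changes and counts of its members are therefore a description, and no p-value was computed for the list as a whole.

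The assay was RNA sequencing of whole proximal jejunum, the upper-middle stretch of the small intestine, from male mice in a study of how food intake relates to intestinal size. The ob/ob mice carry the ob mutation on both copies of Lep and make no functional leptin, the satiety hormone of fat cells, and the control group (WT) was C57BL/6J. Each group had 3 libraries, each a pool of RNA from 2 jejuna, so that p-values measure the spread between pools. The age of these animals was not given in the sources used here, mice in the study were fasted for some hours before sacrifice unless stated otherwise, and the controls were not described as littermates. Genotype, overeating, obesity and colony cannot be told apart. In whole tissue, fewer cells of a type and less RNA per cell cannot be told apart either.

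ATF4 is the main effector of the integrated stress response. Kinases that sense uncharged tRNA, unfolded protein in the endoplasmic reticulum, haem shortage or double-stranded RNA phosphorylate the initiation factor eIF2, which slows general translation while ATF4 mRNA, through its upstream open reading frames, is translated more. ATF4 protein then binds with a C/EBP-family partner to composite elements in the promoters of genes for amino acid uptake and synthesis. The level of Atf4 mRNA is thus a poor measure of ATF4 protein, and no protein was measured here.

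The composite element joins a C/EBP part and an ATF part, and its common form reads TGATGCAA. The stretches of the promoter windows below, from RefSeq sequence of GRCm38.p6, run 5′ to 3′ on the strand of the gene. They are shown because they hold the element, in some members that passed the expression test described below and in some that did not. Atf5 and Mthfd2, also among the largest rises (log2 fold changes 1.55 and 1.33), had no match in their windows. Capitals mark a match to TGATGCAA on either strand, except in Asns, where they mark the looser form TGATGNAA. Coordinates are given after each gene name.
Asns, chr6:7693214-7693243, minus strand: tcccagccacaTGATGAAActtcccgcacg
Chac1, chr2:119351013-119351092, plus strand: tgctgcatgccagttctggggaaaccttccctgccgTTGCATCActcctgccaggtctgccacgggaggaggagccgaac
Atf3, chr1:191183400-191183479, minus strand: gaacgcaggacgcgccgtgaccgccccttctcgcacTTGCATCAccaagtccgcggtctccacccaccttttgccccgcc
Nupr1, chr7:126625562-126625591, minus strand: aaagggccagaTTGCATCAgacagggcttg
Slc7a11, chr3:50443627-50443706, minus strand: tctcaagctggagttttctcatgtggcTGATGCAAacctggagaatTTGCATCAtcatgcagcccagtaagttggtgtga
Pycr1, chr11:120643808-120643887, minus strand: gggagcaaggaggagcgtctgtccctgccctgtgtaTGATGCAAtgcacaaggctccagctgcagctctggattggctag

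RefSeq gave a window of 250 bases before to 50 bases after the transcription start for 33 of the 38 genes. TGATGCAA lay in the window of 7 of these 33 (21.2%), namely Atf3, Chac1, Fgf21, Nupr1, Pycr1, Slc1a4 and Slc7a11. Among all 27025 genes with a window, 279 held it (1.03%), as did 78 of the 9750 tested genes with a window (0.8%). The share was 4 of 18 (22.2%) in tested members that did not pass the expression test described next and 2 of 11 (18.2%) in those that did. With TGATGNAA, which contains the first form and adds Asns and Trib3, the shares were 4 of 18 and 4 of 11 (36.4%), against 4.51% of all genes and 2.8% of the tested genes with a window. In the Asns window the match began 23 bases before the RefSeq start, but GENCODE places the first exon of Asns 45 bases farther upstream, so that the match lies within that exon. The Nupr1 stretch likewise lies in an exon annotated by GENCODE, and in Slc7a11 there were matches beginning 66 and 47 bases before the RefSeq start. Atf4, Atf5, Slc7a1, Psat1, Psph, Shmt2 and Mthfd2 had a window without either form, which says only that these letters are not in that window. A match is a description of sequence and not of binding.

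A total of 14 of the 34 tested members were higher in ob/ob, with an adjusted p below 0.05 in the quasi-likelihood F-test of edgeR fitted over all genes, and 0 were lower. Over all 13168 genes, 496 were higher (3.77%) and 251 lower (1.91%), 5.67% in either direction. Without adjustment, at a p below 0.05, 24 members were higher and 2 lower, where 13.2% and 12.7% of all genes were. DESeq2 called 16 members higher and 0 lower, and 5.55% and 2.49% of all genes. The log2 fold change (ob/ob over WT) was above 0 for 30 members and below 0 for 4, with a median of 0.48 against -0.01 over all genes. The ob/ob libraries lay wholly above the WT libraries for 19 members and wholly below for 2, where 15.8% and 16.2% of all genes did so, 32% in either direction. The 14 rises ran from 1.28-fold for Atf4 to 3.16-fold for Chac1 in mean CPM.

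**Figure D1:**
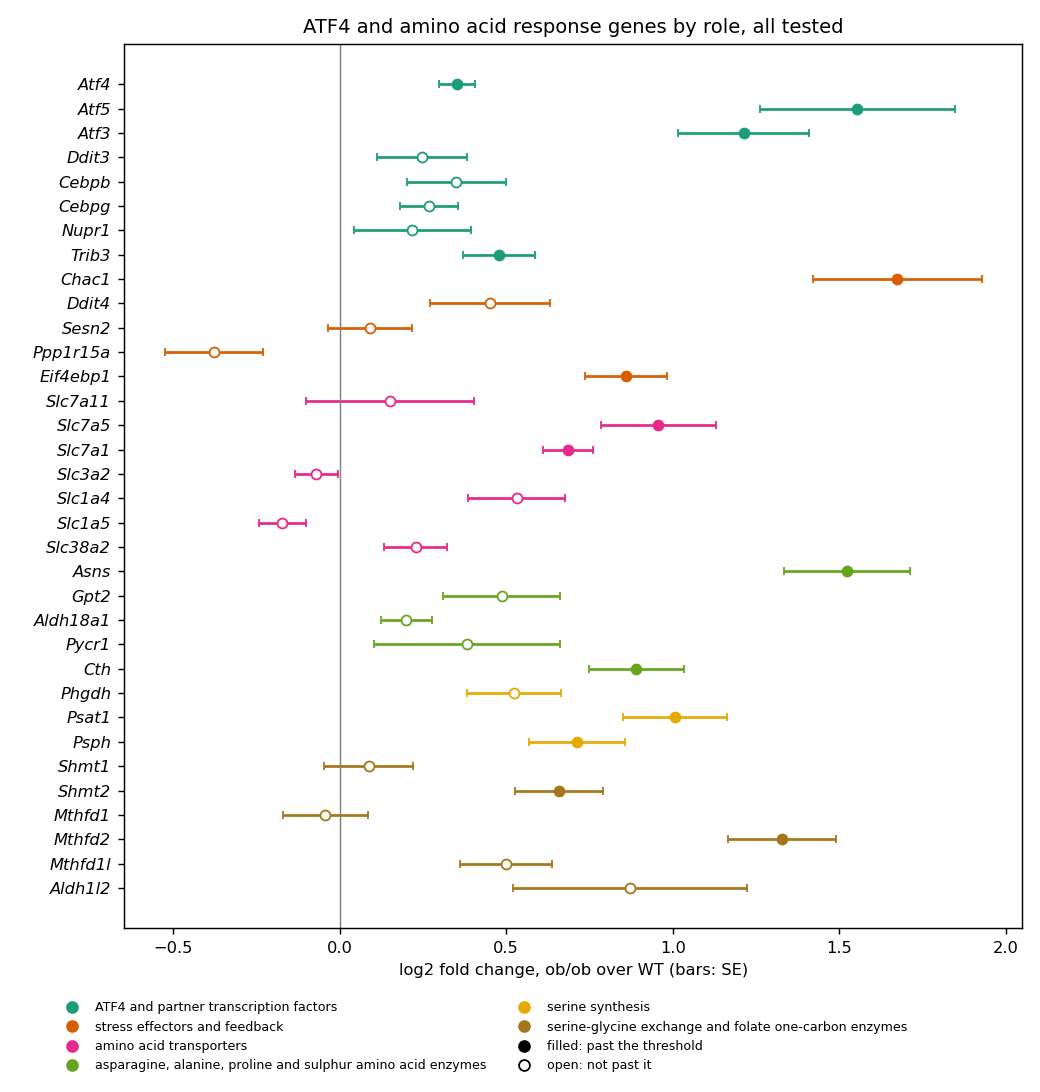
Log2 fold change of ob/ob over WT with its standard error (SE, bars) for the 34 tested ATF4 and amino acid response genes, coloured by role, with filled points for those past the edgeR threshold. All 14 filled points lie to the right of 0, Chac1, Atf5 and Asns farthest, and the 4 points left of 0 are open.

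Atf4 itself, on chromosome 15 of GRCm38 from 80255184 to 80257541, was at 206, 207 and 208 CPM in the ob/ob libraries and at 167, 161 and 159 CPM in WT. The groups did not overlap and the spread was small (SD 0.762 and 4.23 CPM, n = 3), so that a rise of 0.35 ± 0.05 on the log2 scale (SE) passed the threshold (edgeR adjusted p = 0.0122). Atf5, a close relative of Atf4 that is likewise controlled in translation, was at 14.6, 23.5 and 9.64 CPM in ob/ob against 4.90, 6.13 and 5.26 CPM in WT. Its ob/ob libraries spread widely among themselves, and the lowest stood above every WT library (log2 fold change 1.55 ± 0.29, adjusted p = 0.0219). Atf3, an immediate stress-induced factor that can repress ATF4 targets, was at 33.4, 27.1 and 28.1 CPM against 17.6, 10.7 and 9.78 CPM. WT library 1 was the highest of its group, and without it the log2 fold change of Atf3 moved from 1.21 ± 0.20 to 1.53.

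Trib3, a pseudokinase that binds ATF4 and dampens its activity, was at 28.8, 27.2 and 22.3 CPM in ob/ob against 19.6, 19.6 and 17.2 CPM in WT. It was the called member nearest to the threshold (log2 fold change 0.48 ± 0.11, edgeR adjusted p = 0.0393). The other partner factors did not pass. Cebpg, the C/EBP member that pairs with ATF4, was at 138, 169 and 135 CPM against 119, 122 and 126 CPM, with no overlap (log2 fold change 0.27 ± 0.09, adjusted p = 0.0982). Cebpb, another partner, had a log2 fold change of 0.35 ± 0.15, Ddit3, the CHOP factor of prolonged stress, 0.25 ± 0.14, and Nupr1, a small stress-induced chromatin protein, 0.22 ± 0.17 (SE). Their groups overlapped, and their adjusted p-values were 0.175, 0.280 and 0.464. Of the exons of Cebpb, 20.7% overlap those of Tmem189 on the other strand, so its reads are uncertain.

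Among the stress effectors, Chac1, which breaks down glutathione, was at 15.3, 18.3 and 10.0 CPM in the ob/ob libraries and 4.45, 5.93 and 3.40 CPM in WT. This was the largest change of the list, with no overlap (log2 fold change 1.67 ± 0.25, edgeR adjusted p = 0.0122). Chac1 lies on chromosome 2 from 119351229 to 119354381. Eif4ebp1, which encodes a repressor of cap-dependent translation, was at 17.9, 21.0 and 16.0 CPM against 9.18, 10.2 and 10.8 CPM, again with no overlap (log2 fold change 0.86 ± 0.12, adjusted p = 0.0105). Ddit4 and Sesn2, both inhibitors of the growth kinase mTORC1, had log2 fold changes of 0.45 ± 0.18 and 0.09 ± 0.13 and overlapping groups. Scaling by library size alone gave Sesn2 the opposite sign.

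Ppp1r15a encodes GADD34, the stress-induced subunit that brings a phosphatase to eIF2 and so ends the response. It was at 4.43, 3.89 and 5.18 CPM in ob/ob against 5.86, 6.07 and 5.63 CPM in WT, so that every ob/ob library lay below every WT library. The difference was not past the threshold (log2 fold change -0.38 ± 0.15, edgeR adjusted p = 0.151). Its constitutive counterpart Ppp1r15b, on a separate list, was at 370, 410 and 358 CPM against 304, 311 and 314 CPM and passed (log2 fold change 0.29 ± 0.07, adjusted p = 0.0404). The ratio of their counts within a library was 0.0120 on average in ob/ob and 0.0189 in WT, with no overlap. Stc2, a secreted stress glycoprotein, did not reach the filter, with counts of 10, 19 and 9 in ob/ob against 13, 19 and 10 in WT.

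Of the 7 amino acid transporters, 2 were higher, Slc7a1 and Slc7a5, and 0 were lower, where 3.77% and 1.91% of all genes were. Slc7a1 encodes CAT1, the main carrier of arginine and lysine into most cells. It was at 98.8, 85.6 and 84.2 CPM in ob/ob against 57.0, 52.9 and 57.1 CPM in WT, with no overlap and the smallest p of the list (log2 fold change 0.68 ± 0.08, edgeR adjusted p = 0.00546). It ranked 18 among all genes tested. Slc7a5, the LAT1 exchanger of large neutral amino acids, was at 23.1, 20.7 and 16.2 CPM against 12.8, 9.43 and 8.66 CPM, without overlap (log2 fold change 0.96 ± 0.17, adjusted p = 0.0193).

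Slc3a2, the heavy chain that LAT1 and its relatives need to reach the membrane, was at 306, 335 and 302 CPM in ob/ob against 315, 342 and 332 CPM in WT. The groups overlapped (log2 fold change -0.07 ± 0.07, edgeR adjusted p = 0.541). The count of Slc7a5 was 0.0638 of that of Slc3a2 on average in ob/ob and 0.0315 in WT, so that the light chain gained on the heavy chain in mRNA by 2.03-fold. Slc1a5, the ASCT2 carrier of glutamine, was at 38.8, 34.1 and 39.0 CPM against 41.4, 43.7 and 41.1 CPM, below WT in every library but not past the threshold (log2 fold change -0.17 ± 0.07, adjusted p = 0.164). Its relative Slc1a4, a carrier of serine, alanine and cysteine, was at 10.5, 9.30 and 7.80 CPM against 6.99, 5.74 and 6.33 CPM and missed the threshold narrowly (log2 fold change 0.53 ± 0.15, adjusted p = 0.0637). Slc38a2, the SNAT2 carrier, and Slc7a11, the cystine importer, had log2 fold changes of 0.23 ± 0.09 and 0.15 ± 0.25 with overlapping groups, and Slc7a11 changed sign without WT library 3.

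Asns, the enzyme that makes asparagine from aspartate and glutamine and the classic reporter of amino acid shortage, lies on chromosome 6 from 7675169 to 7693254. Its level was 62.2, 81.4 and 44.3 CPM in ob/ob against 20.7, 21.2 and 23.3 CPM in WT. The WT libraries were close together while the ob/ob libraries spread widely (SD 18.6 against 1.40 CPM, n = 3), and even the lowest ob/ob library was well above WT (log2 fold change 1.52 ± 0.19, edgeR adjusted p = 0.00741). Cth, which makes cysteine from cystathionine, was at 116, 150 and 97.1 CPM against 59.3, 69.0 and 67.7 CPM, without overlap (log2 fold change 0.89 ± 0.14, adjusted p = 0.0141). Cbs, the enzyme one step before it, was almost absent, with counts of 9, 12 and 12 in ob/ob against 15, 3 and 9 in WT, and was not tested.

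The enzymes of alanine and proline synthesis did not pass. Gpt2, the mitochondrial alanine aminotransferase, had a log2 fold change of 0.49 ± 0.18 and overlapping groups. Aldh18a1, which starts proline synthesis from glutamate, was at 218, 198 and 202 CPM against 183, 192 and 162 CPM, a separation that missed the threshold (log2 fold change 0.20 ± 0.08, edgeR adjusted p = 0.138). Pycr1, which ends that pathway, was at 1.96 CPM in ob/ob against 1.49 CPM in WT on average, too low for a firm value (log2 fold change 0.38 ± 0.28, SE).

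All 3 enzymes of serine synthesis from glycolytic 3-phosphoglycerate were higher in every ob/ob library than in every WT library, as were 15.8% of all genes. Phgdh, the first enzyme, was at 12.0, 10.6 and 10.1 CPM against 7.55, 8.90 and 6.38 CPM. Psat1, the second, was at 14.7, 15.0 and 12.2 CPM against 6.93, 5.47 and 8.29 CPM. Psph, the last, was at 6.34, 6.51 and 5.95 CPM against 3.38, 4.29 and 3.83 CPM. Psat1 and Psph passed the threshold (log2 fold changes 1.01 ± 0.16 and 0.71 ± 0.14, edgeR adjusted p = 0.0127 and 0.0276), and Phgdh fell just outside it (0.52 ± 0.14, adjusted p = 0.0624). Of the exons of Psph, 10.4% overlap a transcript of Cct6a on the other strand, and without strand its reads cannot be separated there.

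In the next steps, serine gives a carbon to folate, in parallel mitochondrial and cytosolic branches. Of the 4 mitochondrial genes on the list 2 passed the threshold, and of the 2 cytosolic genes 0 did, where 5.67% of all genes passed. The difference between branches was not tested. Shmt2, the mitochondrial serine hydroxymethyltransferase, was at 28.7, 24.7 and 21.0 CPM in ob/ob against 17.4, 13.5 and 16.2 CPM in WT, without overlap (log2 fold change 0.66 ± 0.13, edgeR adjusted p = 0.0267). Mthfd2, which oxidises the folate-bound carbon in mitochondria, was at 27.4, 30.8 and 19.7 CPM against 10.2, 9.30 and 11.4 CPM (log2 fold change 1.33 ± 0.16, adjusted p = 0.00728). Its groups did not overlap, and the ob/ob libraries were more spread than those of WT.

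Mthfd1l, which releases formate from mitochondria, was at 14.7, 15.0 and 13.5 CPM in ob/ob against 10.1, 8.17 and 12.1 CPM in WT, separated but just outside the threshold (log2 fold change 0.50 ± 0.14, edgeR adjusted p = 0.0658). Aldh1l2, a mitochondrial folate dehydrogenase, was low, at 3.20, 2.43 and 1.84 CPM against 1.18, 0.725 and 2.07 CPM, and overlapped (log2 fold change 0.87 ± 0.35, adjusted p = 0.159). Of its exons, 14.1% overlap those of D10Wsu102e. Of the cytosolic enzymes, Shmt1 was at 28.7, 22.3 and 26.1 CPM against 25.2, 19.7 and 27.4 CPM, and Mthfd1 at 48.6, 36.7 and 47.3 CPM against 48.1, 38.1 and 50.1 CPM. The groups overlapped widely for both (log2 fold changes 0.09 ± 0.13 and -0.04 ± 0.13), and either sign occurred for both when single libraries were left out, and for Shmt1 also with scaling by library size alone.

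Ratios of counts within a library do not depend on the scaling between libraries. Shmt2 stood to Shmt1 at 1.00, 1.11 and 0.804 in the ob/ob libraries and at 0.688, 0.686 and 0.589 in WT, a difference of 1.48-fold between means. The ratio of Mthfd2 to Mthfd1 was 0.564, 0.839 and 0.416 against 0.212, 0.244 and 0.228, or 2.66-fold. That of Mthfd1l to Mthfd1 was 0.303, 0.407 and 0.286 against 0.210, 0.215 and 0.242, or 1.50-fold. In each pair every ob/ob library lay above every WT library. Relative to Atf4 mRNA, Asns was 2.25-fold, Chac1 2.48-fold and Atf5 2.29-fold higher in ob/ob, also without overlap, so these 3 transcripts changed by more than that of Atf4. These pairs were picked after the values had been seen and carry no test.

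**Figure D2:**
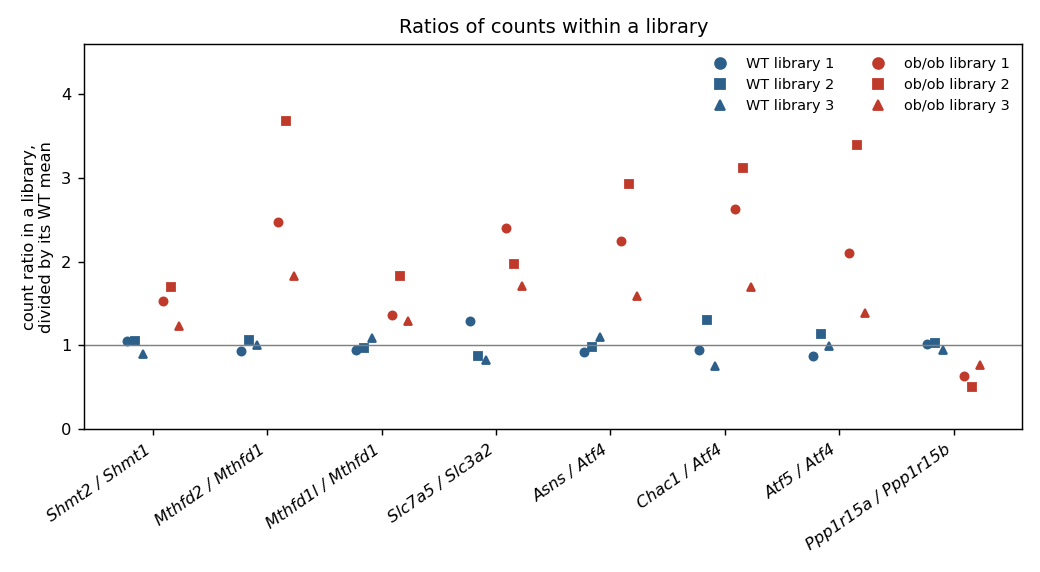
Ratio of the counts of a gene pair in each library, divided by the mean ratio of the 3 WT libraries, with WT in blue and ob/ob in red and a marker shape for each library number. Every red point lies above the blue points of its pair, except for Ppp1r15a over Ppp1r15b, where all red points lie below them.

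The secreted hormones of the response were low in jejunum and did not reach the filter. For scale, 3 counts in a library correspond to 0.159 to 0.198 CPM. Gdf15, a stress hormone that acts on the hindbrain, had counts of 14, 20 and 14 in ob/ob against 10, 10 and 8 in WT, without overlap but below the filter. Fgf21, a liver hormone of fasting, had 0 counts in all ob/ob libraries and 1, 0 and 0 in WT, which gives no fold change.

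Levels of different genes are comparable only per length, here as mean CPM per kilobase of annotated exon. In ob/ob, Slc3a2 (89.0) and Atf4 (87.9) were the most abundant on that scale, followed by Aldh18a1 (50.6), Cth (43.4), Cebpg (26.3) and Asns (22.9). In WT, Asns was at 7.95 on the same scale, below Slc1a5 (10.1), Mthfd1 (10.2) and Trib3 (8.83). The lowest tested members in ob/ob were Aldh1l2 (0.332), Slc7a11 (0.420) and Pycr1 (0.499), and Cbs stood at 0.0890. Sulphur amino acid genes thus spanned a wide range, with Cth abundant and Cbs almost absent in both groups.

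The ob/ob libraries were not alike. Among the 14 members past the threshold, library 2 was the highest ob/ob library for 8 and library 1 for 5, while library 3 was the lowest for 12. Those 8, Asns, Chac1, Atf5, Cth, Eif4ebp1, Mthfd2, Psat1 and Psph, all followed the order library 2, library 1, library 3. The WT libraries had no such order, each being highest for 4 or 5 members. Library 3 still lay above all WT libraries for each of the 14. Among the 20 other tested members, ob/ob library 3 was the lowest for 11 and the highest for 2. Libraries 1 and 2 were each the highest ob/ob library for 9 of them. Library 3 was thus often the lowest in both sets, for 12 of 14 and for 11 of 20 members, all from the same list. Its place was not counted over all genes.

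**Figure D3:**
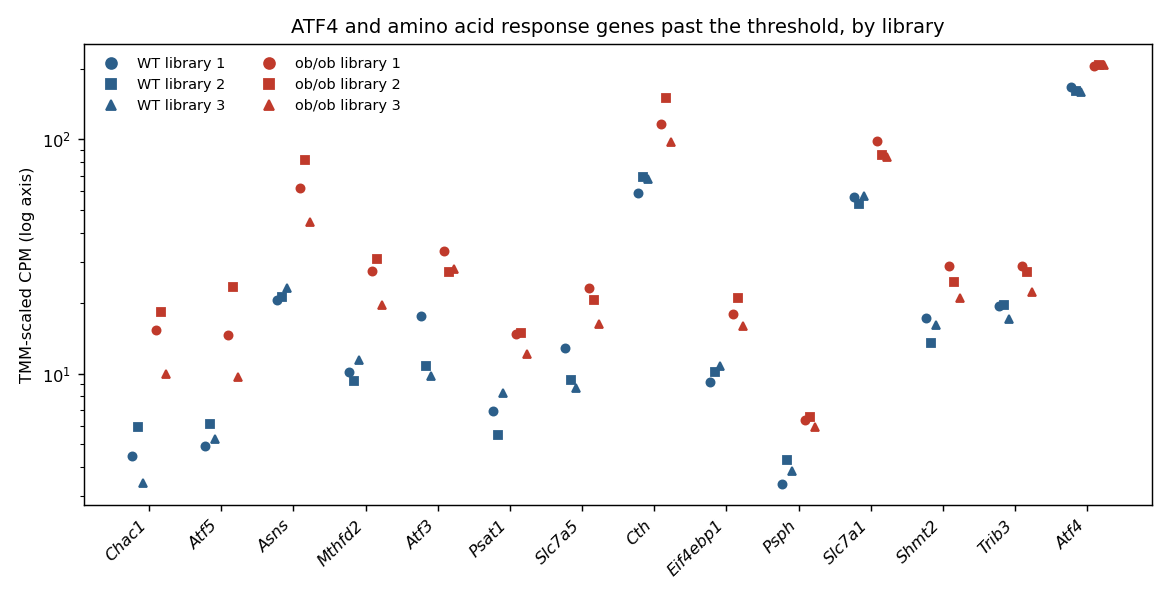
Level of the 14 members past the threshold in each library, in TMM-scaled CPM on a log axis, with WT in blue and ob/ob in red and a marker shape for each library number. No red point falls below a blue point of the same gene, and the red triangle (ob/ob library 3) is the lowest red point for 12 genes.

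The call depended on single libraries more than the fold change did. Without ob/ob library 1, 4 members passed, Asns, Eif4ebp1, Mthfd2 and Slc7a1, while 0.931% of all genes passed. Without ob/ob library 2 the number was 9 (1.48% of all genes), and without library 3 it was 13 (2.39%). Without WT library 1, 2 or 3 it was 13, 11 and 11 (5.17%, 2.26% and 4.46%). The 11 without WT library 3 were 10 of the 14 and Mthfd1l, which did not pass with all 6 libraries. Asns, Eif4ebp1, Mthfd2 and Slc7a1 passed with any 1 library left out. Atf4, Chac1, Cth and Atf3 missed the threshold without ob/ob library 1 (log2 fold changes 0.36, 1.63, 0.92 and 1.12), with adjusted p-values of 0.0513, 0.0513, 0.0513 and 0.0611. Atf5 was outside it with ob/ob library 1 (1.61) or WT library 3 (1.53) left out, and Psat1 with ob/ob library 1 or 2 left out (0.97 and 0.95). Psph passed in only 1 of these 6 fits, that without WT library 2. Shmt2 and Trib3 passed in 2, those leaving out ob/ob library 3 or the first WT library, and Slc7a5 in 3, these same ones and that without WT library 3. The range of the log2 fold change was 1.29 to 1.72 for Asns, 1.16 to 1.81 for Atf5 and 0.34 to 0.37 for Atf4.

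**Figure D4:**
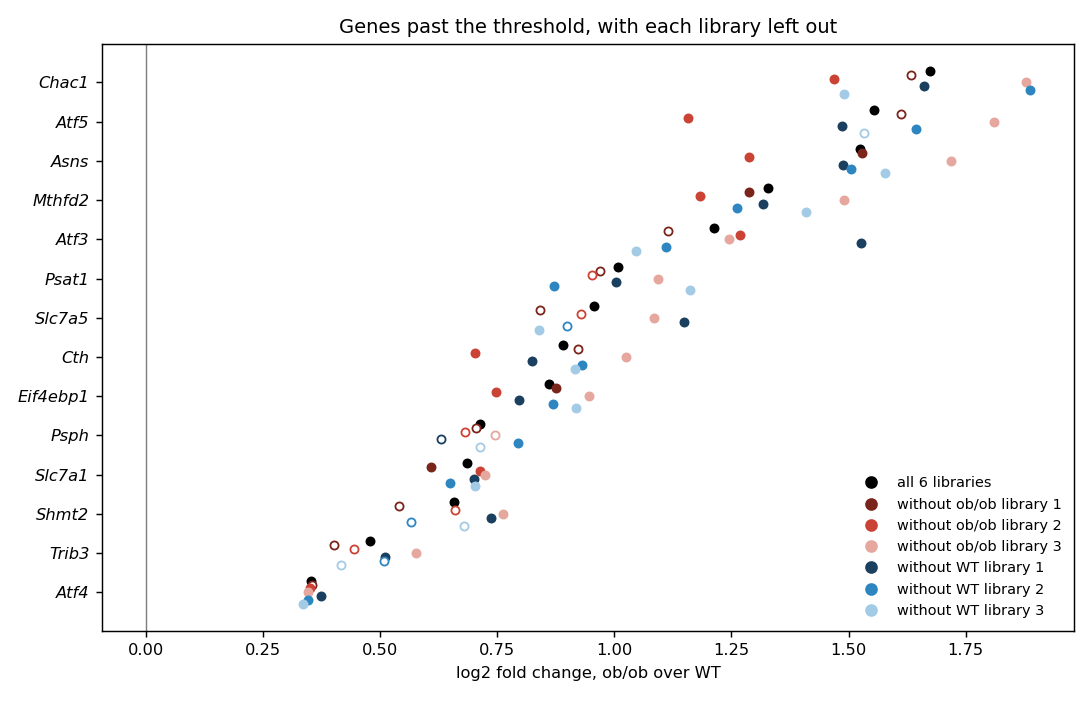
Log2 fold change of ob/ob over WT for the 14 members past the threshold, with all 6 libraries (black) and with each library left out (colours), filled where the edgeR adjusted p stayed below 0.05. All values stay to the right of 0, and open points are most frequent without ob/ob library 1.

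Genes around the response were followed in further lists, which also had been drawn up with earlier results known. Of 20 cytosolic aminoacyl-tRNA synthetases, which charge tRNA and are known ATF4 targets, 14 were higher and 0 lower by edgeR, with a median log2 fold change of 0.43, and 16 were higher and 0 lower at an unadjusted p below 0.05. By edgeR, 3.77% of all genes were higher and 1.91% lower. Yars (0.68 ± 0.06) and Lars (0.50 ± 0.05, SE) had the smallest p-values of the synthetases. Leaving out 1 library left 8 to 13 of them higher, fewest without ob/ob library 1 (8) and WT library 2 (9). Of 15 tested further ATF4 targets, 6 were higher and 0 lower, led by the bZIP repressor Jdp2, at 6.16, 6.57 and 7.50 CPM against 2.08, 1.85 and 2.45 CPM (log2 fold change 1.65 ± 0.17, edgeR adjusted p = 0.00445). Xpot, the tRNA exporter (0.46 ± 0.06), Ero1l, the oxidase of the endoplasmic reticulum (0.51 ± 0.08), and Herpud1, of protein disposal there (0.74 ± 0.13), also passed. The number fell to 3 and 2 without ob/ob library 1 and 2, and to 4 without WT library 2. At an unadjusted edgeR p below 0.05, 8 of these 15 targets were higher and 2 lower, where 13.2% and 12.7% of all genes were. The 2 lower, named after their values were seen, were Tnfrsf10b (-0.48 ± 0.13) and Ndrg1 (-0.32 ± 0.11). Both were below WT in every ob/ob library without passing the threshold.

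Upstream of ATF4, 2 of 16 genes for eIF2, its kinases and its regulators were higher, Eif2s2, the beta subunit of eIF2 (0.35 ± 0.06), and Ppp1r15b, and 0 were lower. Over all genes, 3.77% were higher and 1.91% lower. The median log2 fold change of the eIF2 list was -0.01. The 4 kinases, named after their values were seen, ran from -0.20 ± 0.09 for Eif2ak4, the sensor of uncharged tRNA, to 0.20 ± 0.06 for Eif2ak3, the sensor in the endoplasmic reticulum, with edgeR adjusted p-values of 0.214 and 0.0647. Of 10 bZIP partners, Jun (0.40 ± 0.08) and Jund (0.37 ± 0.07) were higher and none lower. The calls of both lists were fewer or more with a library left out, 0 to 1 for the eIF2 list and 0 to 4 for the bZIP partners. Kinase activity and eIF2 phosphorylation are not visible in mRNA.

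The separate arms of the unfolded protein response, IRE1 and ATF6, had 0 of 15 genes past the edgeR threshold, 0 higher and 1 lower at an unadjusted p below 0.05, and 0 calls by DESeq2. That gene was Hsp90b1, a chaperone of the endoplasmic reticulum (log2 fold change -0.21 ± 0.06, adjusted p = 0.0880), and Hspa5, its main Hsp70, chosen after its values were seen, was at 497, 459 and 475 CPM against 505, 477 and 528 CPM. The folate and methionine cycles and glycine cleavage likewise had 0 of 22 genes past the threshold, with 1 higher at an unadjusted p below 0.05, 0 calls by DESeq2 and a median of 0.02. Mitochondrial chaperones and proteases had 0 of 10, with 3 higher at an unadjusted p below 0.05 and 0 calls by DESeq2. Over all genes, 5.67% passed the edgeR threshold and 13.2% were higher at an unadjusted p below 0.05, so lists of this size would hold few such genes at the background share. Of 11 genes for proline, glutamate and alanine, Gpt, the cytosolic alanine aminotransferase (0.43 ± 0.08), and Aldh4a1, of proline breakdown (0.50 ± 0.12, SE), were higher, which held for 0 to 2 genes with a library left out. Scaling by library size alone moved the median of all genes to -0.13, and those of the folate, mitochondrial and bZIP lists to -0.09, -0.05 and -0.05, so only directions relative to the bulk of genes can be read.

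**Figure D5:**
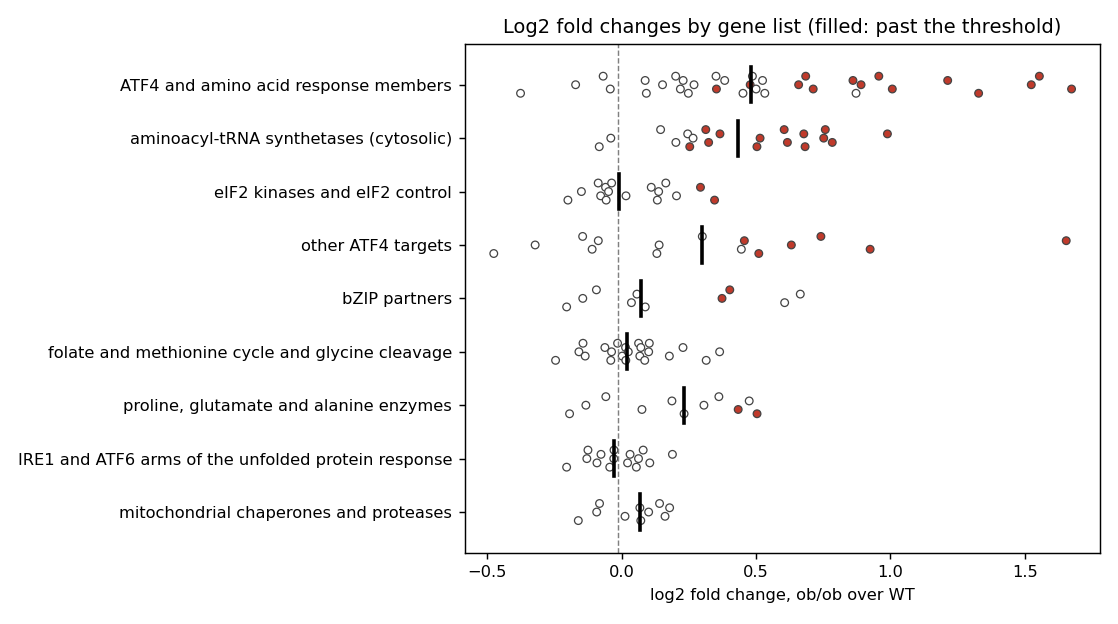
Log2 fold change of ob/ob over WT for the tested genes of each list, 1 point a gene, filled where past the edgeR threshold, with a black bar at the list's median and a dashed line at the median of all genes. Medians are 0.48 for the ATF4 and amino acid response genes and 0.43 for the synthetases, and lie between -0.03 and 0.30 for the other lists.

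Libraries held 14661981 to 18286080 counts, and each pair differed by more than sampling noise (chi-square per degree of freedom 8.14 to 33.2), so none was merged with another. Checked against the tissue label, 8 of 8 enterocyte markers were detected in both groups. Their summed level was 58242 to 64046 CPM in ob/ob against 46155 to 55100 CPM in WT, 1.20-fold higher on average and without overlap. Single enterocyte markers ran from 0.86-fold for Lct, the only 1 below WT, to 1.45-fold for Fabp2. Fabp2 and Alpi (1.36-fold) passed the edgeR threshold. The member rises ran from 1.28-fold to 3.16-fold, a range that overlaps that of these markers. The range of the markers sets no bound on the part of cell types in those rises. Summed markers of endothelium (59.9 to 72.7 against 81.1 to 87.7 CPM), fibroblasts (312 to 373 against 392 to 416 CPM) and macrophages and dendritic cells (87.9 to 116 against 122 to 168 CPM) were lower in every ob/ob library, with 5 of 5 markers found for each. By single genes, 4 of 5 endothelium, 4 of 5 fibroblast and 5 of 5 macrophage and dendritic cell markers had a log2 fold change below 0. Lyve1 and Dcn were at 1.01-fold, and only Kdr (0.62-fold) passed the edgeR threshold. Adipocyte markers, 6 of 6 found, summed to 0.122 to 5.30 CPM in ob/ob against 21.7 to 175 CPM in WT, highest in WT library 2. Of the 5 tested, 4 had a log2 fold change below 0 and 2 were called lower. Lep was at 0.99-fold, with counts of 23, 0 and 20 in ob/ob against 7, 29 and 6 in WT. With WT library 2 left out, 11 of the 14 members passed, Asns at a log2 fold change of 1.50 and Mthfd2 at 1.26 among them. Shmt2 (0.56), Slc7a5 (0.90) and Trib3 (0.51) did not. Summed adipocyte markers were still 21.7 CPM or more in WT libraries 1 and 3, against at most 5.30 CPM in ob/ob. That fit therefore keeps the difference in adipocyte markers between the groups. Of 7 pancreatic acinar markers, 5 were at 0 in every library. The part of these cell types in the results was not tested.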

How the data were processed

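RNA was measured in 6 libraries, 3 ob/ob and 3 WT, grouped by their titles and genotype labels, from 1 cm of washed jejunum. The authors aligned reads to mm10 with TopHat2 and counted them per gene with HTSeq 0.6p1, and used edgeR 3.4.2. The strand setting of the counting was not given in the sources used here. The deposited counts are whole reads without normalization, and the deposited normalized signal is the same counts times 1 constant per library. A deposited table of the authors' comparison (log2 fold changes, mean log2 CPM, p-values) was not used, nor were 36 columns of values per sample, 12 of them from samples outside the series.

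The filter kept genes with more than 1 CPM in 3 or more libraries. The test was the two-sided quasi-likelihood test in edgeR 4.0.16 (R 4.3.3), with TMM factors, the group as the only term and Benjamini-Hochberg adjustment over all genes (threshold 0.05). The SE is the log2 fold change divided by the square root of F. Alternatives were other scalings and filters, the edgeR likelihood ratio test, DESeq2 1.42.0, limma-voom and limma 3.58.1 on log2 of the signal with a pseudocount of 1, a block for the replicate number, and leaving out single libraries. Positions are from GENCODE M21 on GRCm38 and promoter sequences from RefSeq on GRCm38.p6.

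The members and lists were chosen with earlier results of these data known. Every member is accounted for, and of other lists up to 4 genes with the smallest p were named, with those named beyond that marked. Each library's depth allows a floor of 3 counts, for counting error only.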

Additional observations from a re-analysis of the deposited data

How the results depend on the processing

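The 14 higher members were the same 14 with RLE factors, upper quartile factors, limma-voom and limma on the log2 signal. Library size alone lost Trib3 (0.36) and the filter at a mean of 5 CPM lost Psph, while no filter on low counts added Phgdh (0.53). The likelihood ratio test called 17, adding Slc1a4 (0.53), Phgdh (0.52) and Mthfd1l (0.50), and DESeq2 called 16, adding Phgdh (0.53) and Mthfd1l (0.51). No called member changed sign under these settings or with a library left out, and 0 members were called lower. Over all genes, library size alone gave 328 higher and 1407 lower, upper quartile factors 468 lower, and the likelihood ratio test 799 higher and 605 lower. With each library left out in turn, 4 to 13 members were higher, and of all genes 106 to 412 were higher and 16 to 262 lower. Each such fit rests on a group of 2, so fewer calls follow in part from its construction.

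The labels state no pairing by replicate number, and the main fit used none. Deviations of same-numbered libraries correlated at -0.08, 0.07 and -0.02, and those of differently numbered ones at -0.10 to 0.12. With 3 libraries in a group these values cannot decide whether a pairing exists. With the replicate number as a block, 14 members were higher and 0 lower, and 488 and 242 of all genes. Not every library correlated best with its own number. Members under about 2 CPM are limited by depth.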
